A study of Mus musculus with 4 samples.

Results

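The apolipoprotein L genes were followed here through 6 members, Apol6, Apol7a, Apol7c, Apol8, Apol9a and Apol9b, each of which has 1 probe among the 45281 probes of the array. A probe was taken where the platform's annotation names 1 of these genes and no other. The family was picked because Apol7c was higher on the array from mice without the type I interferon receptor, so the values of that array against the controls chose it, and they are given for the members as a description with no test. The cells were spleen marginal zone macrophages of BXD2 mice, an inbred strain prone to autoimmunity resembling lupus, sorted as CD11b low, F4/80 negative, I-Ab negative and SIGN-R1 positive. There was 1 array from BXD2-Ifnar-/- mice given PBS (the array labelled as the knockout, called the Ifnar-/- array here by that label), 1 array from BXD2 mice given 25 µg of sLTβR-Fc intravenously, a soluble decoy that binds the ligands of the lymphotoxin β receptor, and 2 arrays from BXD2 mice given PBS (the controls). All mice were 2.5 months old, were killed 10 hours after the injection, and were pooled as 2 mice per array. A control Fc protein was not part of the arrays analysed, so receptor blockade and other effects of the injected protein cannot be told apart.

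Apolipoprotein L proteins are amphipathic proteins that insert into membranes, and most family members, unlike human APOL1, are not secreted into plasma. APOL1 is the human serum factor that kills trypanosomes by opening a channel in their membranes. In mouse conventional dendritic cells Apol7c is recruited to phagosomes and damages their membrane, which releases engulfed antigen for presentation. Apol9a and Apol9b are close copies that type I interferon induces in mouse cells and that restrict a picornavirus. Human APOL6 is known as a cell death protein. The type I interferon receptor signals to transcription factors that bind the interferon-stimulated response element (ISRE), a DNA motif built from repeated GAAA units that other interferon regulatory factors also recognise.

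The family's promoters were searched for these letters because the comparison removes the receptor upstream of them. RefSeq windows of 250 bases before to 50 bases after the annotated start (build GRCm38.p6) were matched for 5 of the 6 members and for 7 of 8 further genes with the family's name. The ISRE core searched, GAAANNGAAA on either strand, was found for 3 members, Apol7c, Apol9a and Apol9b, and for 5 of the further genes, Apol7e, Apol10a, Apol10b, Apol11a and Apol11b. That is 66.7% of the 12 family genes with a window, while 3.99% of the 27025 genes in the table hold the letters. Apol7c is shown first because it is the member the family was picked for. Its 250 bases before the start, on the minus strand at chr15:77533316-77533565, hold overlapping matches that together span -55 to -40 from the start, in capitals and read as the reverse complement.
Apol7c: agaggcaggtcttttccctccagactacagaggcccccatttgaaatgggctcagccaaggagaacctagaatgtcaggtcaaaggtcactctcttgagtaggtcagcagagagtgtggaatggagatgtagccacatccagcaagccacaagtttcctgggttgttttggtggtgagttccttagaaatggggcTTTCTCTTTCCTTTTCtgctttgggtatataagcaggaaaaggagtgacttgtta

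Windows of 40 bases around the match show how its relatives compare, again with the matched letters in capitals. Those of Apol9a (minus strand, chr15:77411115-77411154) and Apol9b (plus strand, chr15:77729020-77729059) are shown as the interferon-induced pair, Apol7e (plus strand, chr15:77698838-77698877) and Apol7b (minus strand, chr15:77447472-77447511) as the close relatives of Apol7c, and Apol11b (minus strand, chr15:77643312-77643351) because its probe also differed from the controls.
Apol7c: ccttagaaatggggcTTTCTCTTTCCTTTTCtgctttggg
Apol7e: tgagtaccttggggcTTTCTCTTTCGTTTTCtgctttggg
Apol7b: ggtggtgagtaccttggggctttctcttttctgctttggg
Apol9a: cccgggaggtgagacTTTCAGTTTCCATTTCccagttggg
Apol9b: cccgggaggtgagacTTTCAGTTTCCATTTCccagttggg
Apol11b: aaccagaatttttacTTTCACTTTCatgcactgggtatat

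The Apol7c, Apol7e, Apol9a and Apol9b windows each hold 2 matches that overlap by 4 bases, and Apol11b holds 1. No match lies in the Apol7b window, which is set against Apol7c at the first stretch of 12 bases that the 2 promoters share after the Apol7c matches. The promoters of Apol9a and Apol9b share an unbroken run of 281 bases and those of Apol11a and Apol11b a run of 250. The family genes with a match are therefore not independent of each other, which limits the 66.7%. Apol7c shares at most 32 in a row with Apol7b or Apol7e and 7 with Apol7a. The letters TTCNNNGAA, the gamma-activated site (GAS), were found in the windows of Apol10a, Apol11a, Apol11b and Apold1 and in those of 9.55% of all genes. An ETS-IRF composite, GGAANNGAAA, was found for none of the family genes, against 3.16% of all genes. It ends in the same 4 bases as the ISRE core but differs from it at the second base, so no stretch can match both in the same place. The windows of Apol7a and Apol8 held none of the 3 motifs.

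**Figure D1:**
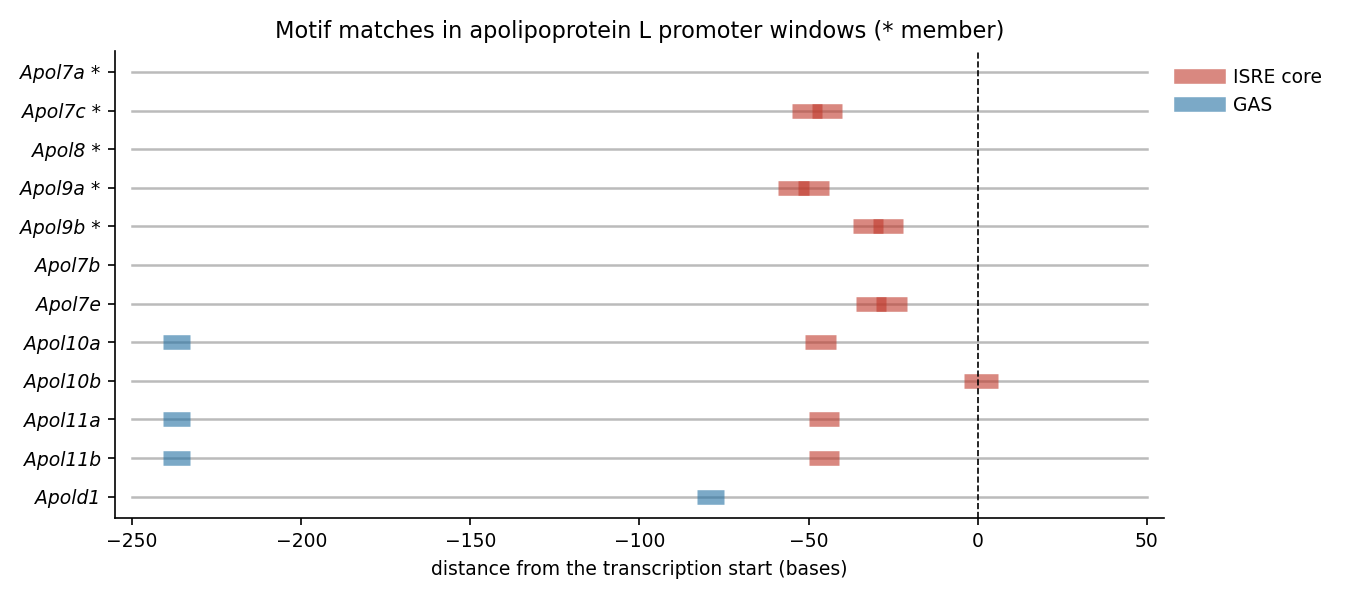
Matches to the ISRE core and GAS letters, on either strand, in the promoter windows of 12 apolipoprotein L genes by distance from the transcription start in bases (grey line, the window searched; dashed line, the start; darker bands, overlapping matches; the first listed start is drawn for Apol9a and Apol9b, which have a second). In 8 genes an ISRE core match lies within the last 59 bases before the start or, in Apol10b, across it.

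The probe of the targeted gene, Ifnar1, did not check the label: it read 179 on the Ifnar-/- array, 114 on the sLTβR-Fc array and 174 and 158 on the controls (deposited intensity), above background on all 4. Where it lies relative to the deleted part of the gene was not analysed here, and a probe outside it could not show the deletion, so each direction given for Ifnar-/- rests on the label.

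Whether a probe reported RNA at all was judged against the background of its array. The most frequent intensity lay between 99.1 and 108.2, and the limit, the 95% point of the noise mirrored about it, was 106 on the Ifnar-/- array, 108 on the sLTβR-Fc array and 113 and 115 on the controls. Between 52.2% and 53.8% of all probes passed. Values called normalised were quantile normalised between arrays, and log2 differences are on that scale, which understates changes of dim probes because background stays in the values. After normalisation the controls correlated at r = 0.992 across 24024 probes, which are not independent replicates, and 44 probes lay 2-fold or more apart between them, against 369 to 576 for any other pair of arrays. The number of arrays limits the precision, and with 1 Ifnar-/- and 1 sLTβR-Fc array the spread rests on the controls alone. In bulk RNA, fewer cells of a type and less RNA per cell cannot be told apart. The labelled cell type was weakly marked: Cd209b, which encodes the SIGN-R1 of the sort, read 152 on the Ifnar-/- array, 145 on the sLTβR-Fc array and 127 and 130.1 on the controls (normalised intensity), and 4 of 8 listed genes of these macrophages were above background on any array.

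Apol7c was the only member above background on all 4 arrays. Apol7a passed on 3 arrays, Apol8 and Apol9b on 1 each, and Apol6 and Apol9a on none. Of the 6 members Apol7c was thus the one with a clear signal, while the other members read between 0.870 and 1.12 times the limit on every array.

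Apol7c had a deposited intensity of 874 on the Ifnar-/- array, against 314 and 264 on the controls. The sLTβR-Fc array read 231. Relative to the background limit of each array these values were 8.25 times on the Ifnar-/- array, 2.13 times on the sLTβR-Fc array and 2.77 and 2.29 times on the controls, so the Ifnar-/- array stood alone and the other 3 lay near each other.

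After normalisation Apol7c read 933 on the Ifnar-/- array, against 266 and 241 on the controls. It was 3.51-fold and 3.87-fold the first and the second control, 3.69-fold their mean (log2 1.88), and the controls differed from each other by -0.14 on the log2 scale (second minus first). Among the 24024 probes compared it ranked 7th from the highest. This is the value the family was chosen by, and nothing is read from its rank or from the fact that it was the 1 member 2-fold above both controls, where 0.475% of all probes were that much higher and 0.753% that much lower. Under every scaling, background and filter setting tried the difference stayed between 1.60 and 2.14.

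**Figure D2:**
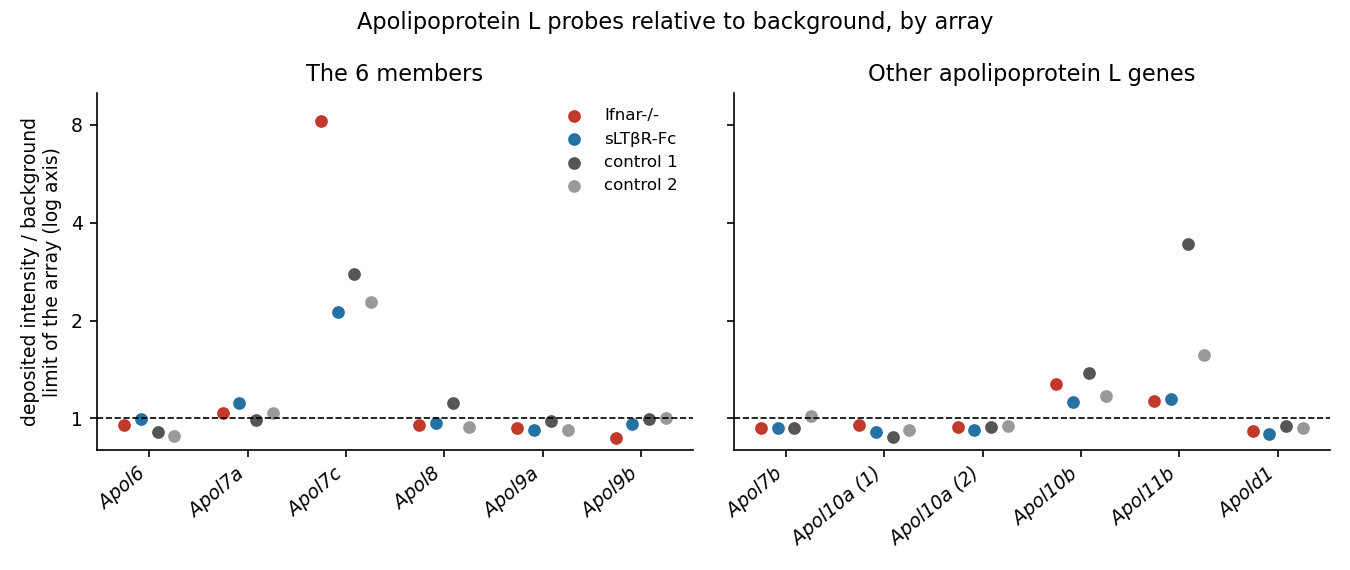
Deposited intensity divided by the background limit of its array (log axis) for the probes of the 6 members and of other apolipoprotein L genes, 1 point per array (dashed line, the limit; Apol10a has 2 probes). Apol7c lies at 8.25 on the Ifnar-/- array and between 2.13 and 2.77 on the other arrays, and Apol11b lies highest on the first control at 3.44.

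The sLTβR-Fc array tests Apol7c in a comparison that did not choose it, although both comparisons share the control arrays. Apol7c read 301 on the sLTβR-Fc array and 266 and 241 on the controls (normalised intensity), a log2 difference of 0.25 ± 0.19 (SE) with a 95% interval of -0.12 to 0.63 and an adjusted p of 0.424 in limma. The array lay above both controls on this scale but below both in the deposited values, where the log2 difference was -0.32 and the median of all genes -0.21. Median scaling gave -0.067. The sign of the difference therefore depended on the scaling. limma did not call it in the deposited values, under median scaling or under the other filters. With background subtracted or with a floor limma called no probe of any gene, so these settings could not decide it.

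Apol9a and Apol9b, the interferon-induced pair, gave no measurable level in these cells. Apol9b read 92.2 on the Ifnar-/- array, 104 on the sLTβR-Fc array and 113 and 116 on the controls (deposited intensity). The controls were at 0.997 and 1.00 times their limits, the second just passing, and the Ifnar-/- and sLTβR-Fc arrays at 0.870 and 0.961 times theirs. On the Ifnar-/- array 2.33% of all probes were dimmer than Apol9b, against 45.6% and 47.2% on the controls. All of these values lie in the noise range, so no fold is given. Apol9a read 99.3 on the Ifnar-/- array, 100.3 on the sLTβR-Fc array and 111 and 107 on the controls, below the limit on every array. A fall of either gene on the Ifnar-/- array was not measurable from this background. The probe sequences were not used here, and whether a probe tells one close copy from another was not tested.

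Apol6 was below the limit throughout, at 102 on the Ifnar-/- array, 108 on the sLTβR-Fc array and 102 and 102 on the controls (deposited intensity). Apol8 read 101, 105 and 126 and 108 in the same order, above its limit on the first control alone. Apol7a read 110.1 on the Ifnar-/- array, 121 on the sLTβR-Fc array and 112 and 119 on the controls, between 0.989 and 1.11 times the limits. Its log2 difference on the sLTβR-Fc array was 0.17 ± 0.088 (SE), above both controls, with an adjusted p of 0.230 in limma. It passed at 0.0332 under median scaling alone. Apol8 and Apol9b had log2 differences of -0.066 and -0.054 on that array, and neither is a change in a measured level. Of the 4 members that passed the filter on dim probes limma called 0 on the sLTβR-Fc array, with 0 at an unadjusted p under 0.05, where it called 13.2% of all probes (6.54% higher and 6.61% lower). None of the 4 was 2-fold from both controls, as 0.753% of all probes were upward and 0.391% downward.

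**Figure D3:**
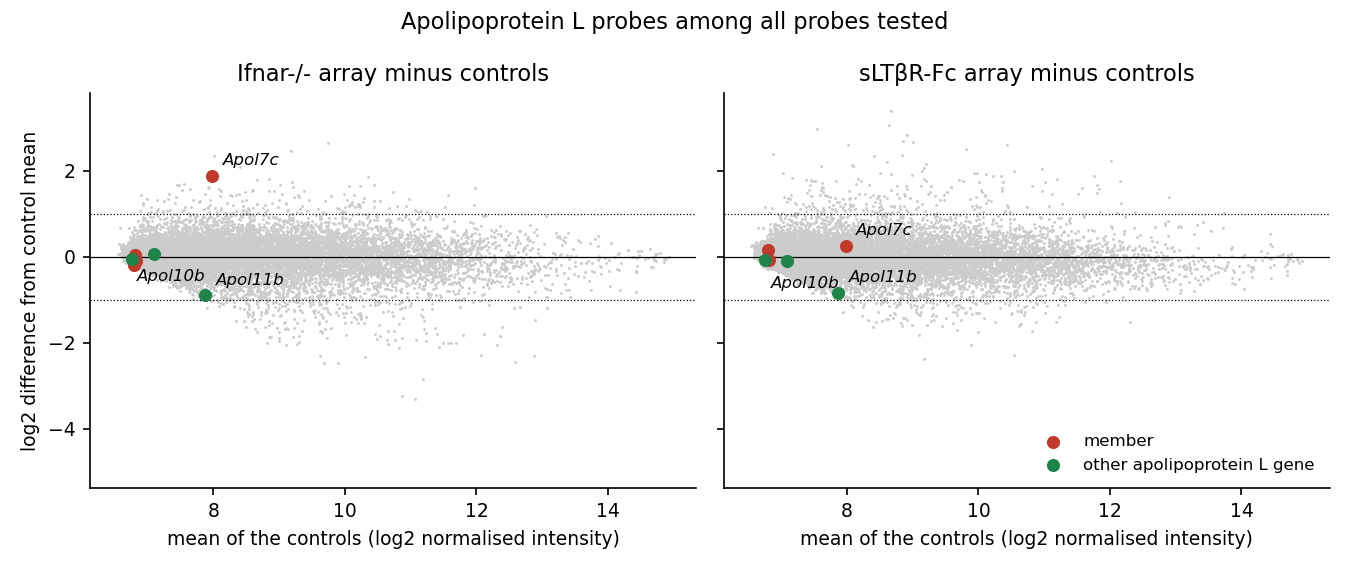
Log2 difference from the control mean against the mean of the controls (log2 normalised intensity) for 24024 probes, with the apolipoprotein L probes that passed the filter marked; dotted lines show 2-fold. Apol7c lies at 1.88 for Ifnar-/- and 0.25 for sLTβR-Fc, Apol11b at -0.89 and -0.84, and the remaining family probes lie near 0.

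Among the other genes of the family's name, the 2 above background on every array, Apol10b and Apol11b, did not follow Apol7c. Of 8 listed, 5 had a probe, and Apol7b, Apol10b and Apol11b passed the filter. Apol7d, Apol7e and Apol11a had no probe, so whether they followed Apol7c was not measured. Apol10b, above background on every array, read 144 on the Ifnar-/- array, 127 on the sLTβR-Fc array and 144 and 130 on the controls (normalised intensity), log2 differences of 0.074 and -0.10 with limma adjusted p values of 0.747 and 0.586. Their signs turned under 1 scaling each, to -0.099 in the deposited values and 0.00025 under median scaling. Apol7b, the near relative of Apol7c, passed the limit on the second control alone. Both Apol10a probes and the probe of Apold1, a gene of endothelial cells, were below the limit on all arrays.

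Apol11b differed from the controls the other way. It read 126 on the Ifnar-/- array, 131 on the sLTβR-Fc array and 323 and 170 on the controls (normalised intensity), so both lone arrays lay below both controls, which themselves stood nearly 2-fold apart (log2 -0.93, second minus first). The log2 difference was -0.89 ± 0.17 on the Ifnar-/- array (SE, limma adjusted p = 8.53e-05) and -0.84 ± 0.17 on the sLTβR-Fc array (adjusted p = 2.08e-04), the only call among the 3 further family genes in each comparison, where 11.1% and 13.2% of all probes were called. Without the first control the differences were -0.43 and -0.37, and without the second -1.36 and -1.31. With a floor on dim values the adjusted p was 0.546 and 0.537 at unchanged differences, and with background subtracted 0.357 and 0.334 at differences of -1.29 and -1.20. Erythroid markers were ordered alike on the controls, their summed normalised intensity being 2229 on the Ifnar-/- array, 2840 on the sLTβR-Fc array and 6552 and 3624 on the controls. Markers of neutrophils (21374 against 12640), marginal zone macrophages (1169 against 780), dendritic cells and B cells also stood higher on the first control. Those of T cells stood lower there (12053 against 14589). The part of any of these cells in the Apol11b values was not tested.

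Genes known to answer type I interferon were set beside the family, from a list of the pathway. Of 40 measured on their brightest probe, 32 lay below both controls and 3 above both on the Ifnar-/- array, where 35.1% and 42.8% of all genes did so. limma called 20 lower and 0 higher, against 6.15% and 5.95% of all genes, and 8 were 2-fold lower, as were 137 of all 14744 genes. The median log2 difference was -0.43, against 0.015 over all genes, and -0.64 without the first control. Between the controls the median of the list was 0.20 (second minus first). With a floor on dim values or with background subtracted limma called no probe of any gene in either comparison (4568 and 3984 for Ifnar-/- and 5306 and 4726 for sLTβR-Fc at an unadjusted p under 0.05), which ends every call given here and for the cell type markers. In these fits limma's prior held 0.861 (floor) and 2.59 (background subtracted) degrees of freedom, against 51.4. The list's median was -0.43 with the floor and -0.56 with background subtracted.

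Ifi27, Ifi27l2a and Oasl2 had the lowest differences of the list. Ifi27, a mitochondrial protein of the interferon response, fell to 1123 on the Ifnar-/- array, against 5719 and 6621 on the controls (log2 -2.45 ± 0.18, SE, limma adjusted p = 1.21e-14). Ifi27l2a lay at -2.09 ± 0.22 and the antiviral gene Oasl2 at -2.06 ± 0.19, though further Oasl2 probes gave -0.40 and -0.16. Ifit3 fell as well (-1.65 ± 0.19), and Isg15, a ubiquitin-like modifier, fell by 0.40 on the log2 scale. Irf7, the factor that amplifies the response, differed by -0.25 (adjusted p = 0.305 in limma). The highest of the list were the membrane genes Bst2 and Ly6e and the GTPase gene Gbp2 at 0.24, 0.21 and 0.12, none called. Apol7c at 1.88 thus lay above every measured gene of this list on the Ifnar-/- array, a description of a gene chosen for its height.

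On the sLTβR-Fc array the list had a median of -0.16, 22 of 40 genes below both controls and 4 above both, where 35.7% and 43.7% of all genes did so. limma called 6 lower and 0 higher, against 6.08% and 7.95% of all genes. This median moved with the scaling, to -0.76 in the deposited values, where that of Ifnar-/- was -0.74, and to -0.51 under median scaling, where it was -0.56. Over all genes the deposited values had medians of -0.21 (sLTβR-Fc) and -0.14 (Ifnar-/-). In the deposited values and under median scaling, the list's median was therefore not shown to differ between the 2 arrays. After quantile normalisation 0 of the 40 genes were 2-fold lower for sLTβR-Fc, while 8 were for Ifnar-/-. Of all 14744 genes, 68 were 2-fold lower for sLTβR-Fc and 137 for Ifnar-/-. The 0 is thus near the share of all genes. The difference between the 2 arrays was not tested.

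Because Apol7c is known from dendritic cells, their markers were examined too. Of 14 measured, 11 lay above both controls and 0 below both on the Ifnar-/- array, and limma called 8 higher, where 42.8%, 35.1% and 5.95% of all genes did so. The median log2 difference was 0.60, and 0.37 in the deposited values. For sLTβR-Fc 4 lay above both controls, 6 below and 2 were called higher, where 43.7%, 35.7% and 7.95% of all genes did so. The median for sLTβR-Fc was -0.0044, with -0.38 in the deposited values and -0.13 under median scaling. The summed normalised intensity of the list was 16952 on the Ifnar-/- array, 10349 on the sLTβR-Fc array and 10635 and 10409 on the controls.

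Batf3, a factor that conventional dendritic cells of the cross-presenting type need, rose to 356 on the Ifnar-/- array, against 131 and 153 on the controls (log2 1.33 ± 0.14, SE, limma adjusted p = 4.26e-10), and its further probe gave 0.33. Itgax, which encodes CD11c, was at 1.25 ± 0.19, with 0.13 on its further probe. Xcr1, the chemokine receptor of cross-presenting cells, read 178 on the Ifnar-/- array, against 120 and 120 on the controls (0.57 ± 0.099), and Clec9a, their receptor for dead cells, 536 against 255 and 397 (0.75 ± 0.20). All 4 defining markers were above background on every array. On the sLTβR-Fc array the brighter Batf3 probe rose too, to 253 (log2 0.84, limma adjusted p = 1.62e-05), but the further probe gave 0.032 (limma adjusted p = 0.877), while Xcr1 and Clec9a lay at 0.0010 and -0.0099. The part of these cells in the Apol7c value was not tested.

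Of 11 genes of mature dendritic cells 7 lay above both controls and 2 below on the Ifnar-/- array, with 3 called higher, where 42.8%, 35.1% and 5.95% of all genes did so. Their median difference was 0.24, but 0.0052 in the deposited values. For sLTβR-Fc it was -0.0074, with 2 genes called lower, where 6.08% of all genes were. The median for sLTβR-Fc was -0.45 in the deposited values and -0.20 under median scaling. On the Ifnar-/- array Ccr7, the homing receptor of mature cells, lay below both controls, unlike 7 of the 11 genes. Ccr7 read 1561 on the Ifnar-/- array, 1117 on the sLTβR-Fc array and 1937 and 1719 on the controls. The sort was gated on I-Ab negative cells, while dendritic cells and B cells carry surface MHC class II. Which cell types the sorted samples held was not tested. B cell markers had a median difference of 0.52 for Ifnar-/- (12 of 13 above both controls, 6 called higher), with a summed intensity of 35918, against 25859 and 24027 on the controls. That median was 0.24 in the deposited values and 0.36 without the second control. For sLTβR-Fc it was -0.24 (9 of 13 below both, 3 called lower, where 35.7% and 6.08% of all genes did so) and -0.67 in the deposited values.

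The remaining marker lists moved with the scaling and with single controls. Median differences, for Ifnar-/- and then for sLTβR-Fc, were -0.29 and -0.55 for T cell genes, -0.43 and 0.0044 for neutrophil genes, -0.81 and -0.51 for erythroid genes and 0.17 and 0.21 for marginal zone macrophage genes. In the deposited values they were -0.59 and -1.18, -0.62 and -0.44, -1.09 and -1.10 and, for the macrophage genes, -0.052 and -0.079. Median scaling gave -0.93 for T cell, -0.19 for neutrophil and -0.85 for erythroid genes for sLTβR-Fc. Without the first and then without the second control, the neutrophil median was 0.23 and -0.29 for sLTβR-Fc, and the erythroid median -0.50 and -1.27 for Ifnar-/- and -0.21 and -1.001 for sLTβR-Fc. Without the second control the macrophage median for Ifnar-/- was -0.084, and the T cell median -0.19 for Ifnar-/-. Ltf, a granule protein of neutrophils, fell to 215 on the Ifnar-/- array, against 2811 and 1617 on the controls (normalised intensity, limma adjusted p = 1.21e-14). Klf1, a factor of red cell precursors, fell on both arrays (log2 -1.41 and -1.31), and Cd3e, a subunit of the T cell receptor complex, differed by -0.64 and -0.68 and was called for sLTβR-Fc alone. Marco, a scavenger receptor of marginal zone macrophages, read 181 on the Ifnar-/- array, 168 on the sLTβR-Fc array and 252 and 162 on the controls, without a call.

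**Figure D4:**
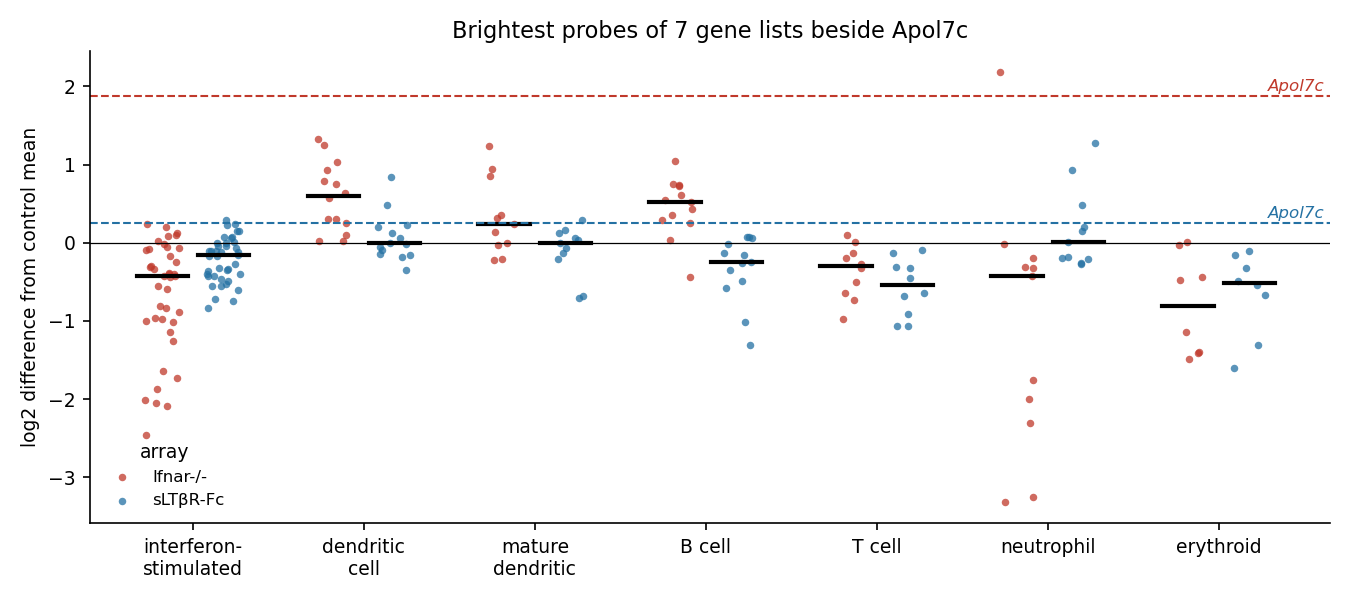
Log2 difference from the control mean for the brightest probe of each measured gene in 7 lists, on the Ifnar-/- array (red, left of each pair) and the sLTβR-Fc array (blue); black bars are medians and dashed lines the Apol7c values of 1.88 and 0.25. Interferon-stimulated genes have medians of -0.43 and -0.16, dendritic cell markers of 0.60 and -0.0044.

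The genes beside the family on chromosome 15 were looked at by their position, 4 coding genes on each side and Rbfox2 within the cluster. Of these 9, 8 had probes that passed the filter, 14 probes in all, and limma called 3 probes higher and 1 lower on the Ifnar-/- array, against 5.33% and 5.77% of all probes. Of these calls 3 were probes of Myh9, the nonmuscle myosin gene, and they did not run one way: the brightest read 324 on the Ifnar-/- array, against 2395 and 2252 on the controls (normalised intensity, log2 -2.84), and the others gave 1.00 and 0.28. The remaining call was a probe of 1110038F14Rik at 0.37, with 0.0845 on its other probe. Eif3d, a translation factor subunit, read 4830 on the Ifnar-/- array, against 5396 and 5372 on the controls, without a call. The Myh9 probe at 1.00 read 765 on the Ifnar-/- array, against 455 and 319.7 on the controls. On the sLTβR-Fc array the 3 Myh9 probes, in the order given, had log2 differences of -1.52, 0.86 and -0.043. The larger 2 Myh9 differences were thus not particular to the Ifnar-/- array. None of the neighbours was 2-fold above both controls on the Ifnar-/- array, where 0.475% of all probes were.

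The probes most like Apol7c over the 4 arrays were those of Retnlg, Ccnd1, Zswim6, Ccnd1 again and Myadm, by Euclidean distance of log2 profiles centred on the control mean among 15976 probes above background on every array. Retnlg, a resistin-like gene of neutrophils that moved against the other neutrophil markers, was nearest at a distance of 0.32 and read 1286 on the Ifnar-/- array, 315 on the sLTβR-Fc array and 299.8 and 268 on the controls. The probes of Ccnd1, cyclin D1, followed at 0.34 and 0.44, with log2 differences of 1.65 and 1.67 for Ifnar-/- and of 0.46 and 0.57 for sLTβR-Fc. Zswim6 and Myadm stood at distances of 0.44 and 0.48. The likeness rests on 4 arrays, 1 of which sets most of it, and is a description.

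**Figure D5:**
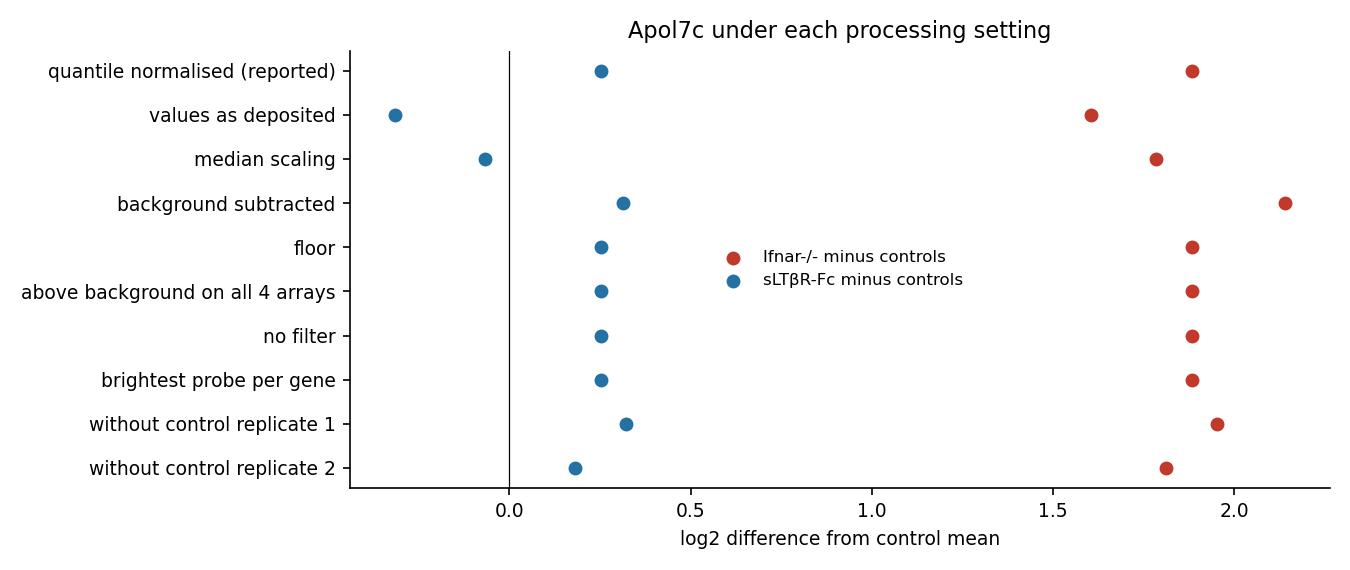
Log2 difference of Apol7c from the control mean (x axis) under each processing setting (rows) for the Ifnar-/- array (red) and the sLTβR-Fc array (blue). The Ifnar-/- values lie between 1.60 and 2.14, and the sLTβR-Fc values lie between -0.32 and 0.32, below 0 in the deposited values and under median scaling.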

How the data were processed

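The authors deposited a linear intensity for each of 45281 probes on every Illumina single-colour array; per the submitters' processing notes GenomeStudio 2011.1 was used, with background handling and scaling not given in the sources used here. RNA was Trizol-extracted and labelled as biotin cRNA, per the labels' protocols. Whether the 2 controls came from different mice is not in the labels, so the spread behind each p-value is that of these arrays and may be technical. Probes were named from the platform annotation (34885 with 1 gene symbol, 18 with several, 10378 with none). Intensities were quantile normalised, without a floor, and converted to log2, and the 24024 probes with 1 symbol above background on at least 1 array were fitted in limma 3.58.1 (R 4.3.3) with 3 group means, an intensity trend and Benjamini-Hochberg adjustment to 0.05 over all of them. The fit has 1 residual degree of freedom, assumes that the lone arrays vary as the controls do and shrinks each probe's spread toward the trend (prior of 51.4 degrees of freedom). A probe counted as 2-fold changed when it differed by a log2 of at least 1 from each control. Lists used the brightest probe of each gene. The script was tested on simulated data. Named genes were all family probes, the 3 lowest and 3 highest interferon genes with Ifit3, Isg15 and Irf7, neighbours by position, the 5 nearest profiles and defining cell type markers. Some genes of this rule are not reported here. Nearest profiles of Apol9b, also in that rule, are not given because it was at background. The members and lists were chosen with earlier results of these data known. The motifs were chosen after the array values had been seen.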

Additional observations from a re-analysis of the deposited data

How the results depend on the processing

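No paired analysis was possible because the labels give no pairing of arrays between the groups. The Apol7c difference on the Ifnar-/- array was 1.60 in the values as deposited, 1.78 under median scaling, 2.14 with background subtracted and 1.81 to 1.95 leaving out a control. On the sLTβR-Fc array it turned to -0.32 as deposited and -0.067 under median scaling, and was 0.18 to 0.32 leaving out a control. The values as deposited shift the median of all genes by -0.14 (Ifnar-/-) and -0.21 (sLTβR-Fc). Other signs turned for differences near 0: Apol10b to -0.099 (Ifnar-/-, as deposited), and under median scaling Apol7b to 0.013 (Ifnar-/-) and, on the sLTβR-Fc array, Apol8 to 0.096, Apol9b to 0.12, Apol7b to 0.11 and Apol10b to 0.00025. Apol7a turned to -0.071 (Ifnar-/-, as deposited), and without the first control Apol8 turned to 0.024 (Ifnar-/-) and 0.050 (sLTβR-Fc; -0.18 without the second). Among 66 alternative values of the members, 7 had the opposite sign, and 1 newly passed (Apol7a under median scaling, where limma's prior was infinite).

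limma called 2667 probes on the Ifnar-/- array (1281 higher, 1386 lower) and 3160 on the sLTβR-Fc array (1571 and 1589). Both counts were 0 with background subtracted (3984 and 4726 at an unadjusted p under 0.05) and with a floor (4568 and 5306), so every call named in the text rests on leaving dim values as they are. On the sLTβR-Fc array 7778 were called as deposited (230 higher, 7548 lower), 5463 under median scaling (2135 and 3328) and 2006 with the brightest probe per gene. On the Ifnar-/- array 3805 were called as deposited (336 higher, 3469 lower) and 2358 under median scaling (814 and 1544). Probes past 2-fold numbered 295 on the Ifnar-/- array (448 as deposited, 485 with background subtracted, 369 to 576 leaving out a control) and 275 on the sLTβR-Fc array (917 as deposited, 424 under median scaling, 495 with background subtracted, 410.0 to 467 leaving out a control). Their higher and lower shares went with the scaling, 114 and 181 against 47 and 401 as deposited and 77 and 234 under median scaling on the Ifnar-/- array, and 181 and 94 against 38 and 879 and 83 and 341 on the sLTβR-Fc array.

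The interferon list median on the Ifnar-/- array was -0.74 as deposited and -0.64 to -0.40 leaving out a control. The dendritic median there was 0.37 as deposited, 0.55 under median scaling, 0.73 with background subtracted, 0.69 for probes above background on all arrays and 0.57 without a filter, and 0.59 leaving out either control. The causes were not tested. Signal over background limits 5 of the 6 members to the noise range.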
